A study of Mus musculus with 6 samples.

Results

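The integrins are the adhesion receptors with which leukocytes hold on to vessel walls, matrix and other cells, and 10 integrin genes of splenic monocytes are described here. They were chosen by name, as the α4 subunit gene Itga4, its β partners Itgb1 and Itgb7, the β2 integrin genes Itgal, Itgam, Itgax and Itgb2, and the subunit genes Itga5, Itga6 and Itgb3. They are 10 of 55421 genes in the files, and all 10 had enough counts to be tested. Each integrin is a pair of 1 α and 1 β chain, and a chain generally reaches the cell surface only with a partner. α4 pairs with β1 to bind VCAM-1 and fibronectin, and with β7 to bind MAdCAM-1. The β2 chain pairs with αL, αM, αX or αD, and of these αLβ2 binds the ICAM proteins and αMβ2 binds ICAM-1, fibrinogen and complement fragments. Patrolling monocytes with little surface Ly6C are known for high αLβ2, with which they crawl along the endothelium.

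RNA was sequenced from splenic monocytes of C57BL/6 mice of the genotypes IL-4Rα+/+ and IL-4Rα-/-, 3 of each and each mouse a library of its own. The IL-4Rα-/- mice lacked the receptor chain for IL-4 and IL-13 in every cell, not only in monocytes, so a difference may start in monocytes or elsewhere. The controls were IL-4Rα+/+ animals, no treatment is named, the animals were between 8 and 16 weeks old, and the monocytes were enriched with magnetic beads that remove other cells. The comparison addresses which transcripts of splenic monocytes depend on IL-4Rα.

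All 19 monocyte marker genes were detected, and their summed level overlapped between the genotypes, from 23071 to 27076 CPM (counts of a gene brought to a common library size by the TMM method) in IL-4Rα+/+ and from 24307 to 27788 CPM in IL-4Rα-/- libraries. Il4ra, the targeted gene, was at 137, 128 and 177 CPM in IL-4Rα+/+ and at 27.9, 79.4 and 31.8 CPM in IL-4Rα-/- replicates 1, 2 and 3, so the second knockout library kept more of its reads than the others. That library also stood apart in transcripts of pancreatic enzymes, with a sum of 217 CPM over 5 genes against 22.5 CPM or less in each of the other 5 libraries. Integrin values without it are given after the account of the single genes. Summed markers of 4 other cell types were higher in every IL-4Rα-/- library, namely erythroid cells (211 to 502 against 91.9 to 148 CPM), eosinophils, basophils and mast cells (150 to 234 against 92.3 to 102 CPM), red pulp macrophages (5438 to 8546 against 4267 to 5140 CPM) and B and plasma cells (645 to 796 against 529 to 616 CPM). Fitted changes were above 0 for 16 of 16, 13 of 15, 14 of 16 and 13 of 14 of their tested markers, and no marker of these lists that was in the files was at 0 in all libraries. By unadjusted p under 0.05, 12, 11, 7 and 1 of them were higher, where 515 of all 13849 genes tested passed as higher and 8.09% passed in either direction. DESeq2 called 3, 4, 0 and 0 of them, where it called 0.571% of all genes. Neutrophil markers overlapped, at 211 to 2131 CPM in IL-4Rα+/+ and 435 to 3210 CPM in IL-4Rα-/- libraries, with 14 of 15 fitted changes above 0, 5 of them past the unadjusted p under 0.05 and 1 called by DESeq2. In bulk RNA, fewer cells of a type and less RNA per cell cannot be told apart, and the part of these cells in the results below was not tested except where values are given.

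The sequences just upstream of 3 of the genes are shown. Itga4 was chosen because it differed most by genotype, and Itgb1 and Itgax because they ranked the 6 libraries in 1 common order. Whether these sequences have a part in the RNA levels was not tested. Each is the 250 bases before the RefSeq transcription start on GRCm38.p6, written 5′ to 3′ on the strand of the gene, and RefSeq windows were at hand for 6 of the 10 members. Capitals mark letters that match 1 of 3 motifs searched on both strands, the STAT6 site (TTC, any 4 bases, GAA), the core GAGGAA of PU.1 and related ETS factors, and the Sp1 box GGGCGG. The windows lie at chr2:79255176-79255425 for Itga4, chr8:128685404-128685653 for Itgb1 and chr7:128129300-128129549 for Itgax, all on the plus strand.
Itga4: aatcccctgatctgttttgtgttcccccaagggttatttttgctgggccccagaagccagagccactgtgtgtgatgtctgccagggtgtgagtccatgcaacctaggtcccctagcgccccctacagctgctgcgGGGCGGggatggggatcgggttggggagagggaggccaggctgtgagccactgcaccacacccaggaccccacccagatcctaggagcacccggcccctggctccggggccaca
Itgb1: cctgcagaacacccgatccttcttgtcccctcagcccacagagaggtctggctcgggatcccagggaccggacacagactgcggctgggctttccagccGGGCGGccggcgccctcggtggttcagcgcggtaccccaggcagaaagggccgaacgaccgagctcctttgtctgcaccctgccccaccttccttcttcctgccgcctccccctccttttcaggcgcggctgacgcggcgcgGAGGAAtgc
Itgax: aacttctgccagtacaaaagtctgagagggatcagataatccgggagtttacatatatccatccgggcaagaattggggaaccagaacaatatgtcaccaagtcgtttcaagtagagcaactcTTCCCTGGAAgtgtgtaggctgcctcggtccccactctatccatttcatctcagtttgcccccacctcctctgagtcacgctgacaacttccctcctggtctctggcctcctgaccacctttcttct
The Itga4 window held a GGGCGG box and neither of the other motifs. The Itgb1 window held a GGGCGG box and a GAGGAA core. The Itgax window held the STAT6 letters and nothing else searched. Over 32851 promoter windows of the same length, 5.85% held the STAT6 letters, 23.3% the ETS core and 32.7% the Sp1 box, and a match here is only a match of letters. Among the 6 members, only the Itgax window held the STAT6 letters, and the Itgb7 window held none of the 3 motifs.

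Across all genes, the quasi-likelihood test of edgeR, adjusted by Benjamini-Hochberg, called 0% of 13849 genes at the threshold of 0.15 used by the study, with a smallest adjusted p of 0.618. By the unadjusted p under 0.05, 8.09% of the 13849 genes passed, and 4.37% of the 13849 passed as lower in IL-4Rα-/- cells. DESeq2, run on the same counts at the same threshold, called 0.571% of 14003 genes. The genotypes did not overlap in CPM for 15.5% of genes, and 7.87% of genes lay lower in all 3 IL-4Rα-/- libraries. Of the 10 integrins, edgeR called 0 after adjustment, 1 passed the unadjusted p, DESeq2 called 1, and 1 had genotypes without overlap, and in each case that gene was Itga4. Fitted fold changes were below 0 for 8 of the 10 (Itgam turned to 0.00084 with scaling by the library total only) and above 0 for Itga5 and Itga6, with a median log2 fold change of -0.23 against 0.01 over all genes tested.

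**Figure D1:**
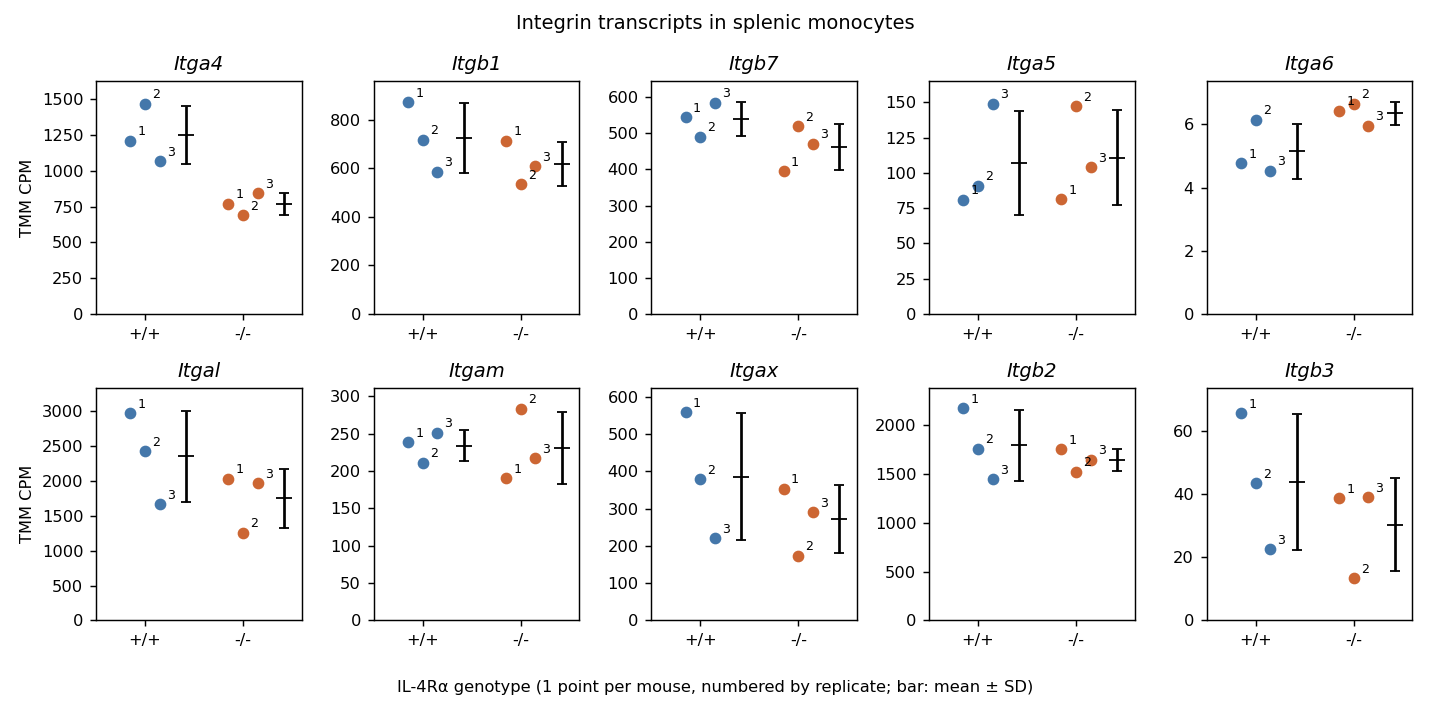
TMM-scaled CPM (y axis, from 0) of each of the 10 integrin genes by IL-4Rα genotype, 1 point per mouse numbered by replicate, with the mean ± SD of 3 mice as a black bar. Only for Itga4 do all 3 IL-4Rα-/- points (692 to 845 CPM) lie below all 3 IL-4Rα+/+ points (1070 to 1469 CPM).

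Itga4 encodes α4, the chain that monocytes use to roll and arrest on VCAM-1. Its gene lies at chr2:79255426-79333123 on GRCm38, plus strand. Itga4 was at 1212, 1469 and 1070 CPM in the 3 IL-4Rα+/+ libraries and at 771, 692 and 845 CPM in the 3 IL-4Rα-/- libraries, which is 1250 ± 203 against 769 ± 76.7 CPM (mean ± SD, n = 3 per genotype). The genotypes were separated by a gap wider than the range of the knockout libraries. The log2 fold change was -0.70 (SE 0.14). Of 13849 genes 16 had a smaller unadjusted p in edgeR (adjusted p = 0.618), and DESeq2 called it with an adjusted p of 0.0139. With DESeq2 under 9 other settings its adjusted p ran from 0.000251 to 0.232, and the call was lost without IL-4Rα+/+ replicate 2 (0.157) and without IL-4Rα-/- replicate 1 (0.232). Without IL-4Rα-/- replicate 2, the library with the most Il4ra reads, the log2 fold change in edgeR was -0.63.

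Both sexes were present among the mice, as judged by Xist and 4 Y-linked genes. IL-4Rα+/+ replicate 1 and IL-4Rα-/- replicate 3 carried Xist, and the other 4 libraries, 2 of each genotype, carried the Y-linked transcripts. Within the Xist pair Itga4 was at 1212 CPM in the IL-4Rα+/+ and 845 CPM in the IL-4Rα-/- library. Within the Y-linked set it was at 1469 and 1070 CPM against 771 and 692 CPM, so the knockout was lower in each sex, with log2 ratios of -0.52 and -0.80. None of the 10 integrins separated the Y-linked from the Xist libraries, where 4.59% of all genes were lower and 4.73% higher in every Y-linked library.

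Itga4 has a long transcript of 9767 bases, and long transcripts as a class lay lower in IL-4Rα-/- libraries. The 320 tested genes with transcripts at least as long had a median log2 fold change of -0.22, with 77.2% of them below 0, against a median of 0.01 for shorter genes. With the trend of counts with length removed from each library, the log2 fold change of Itga4 was -0.57. Itga4 shares 8.04% of its exon bases with Cerkl on the opposite strand, a gene with 72 to 145 counts per library against 19750 to 40608 for Itga4.

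The β chains that pair with α4 showed smaller differences. Itgb1, which serves α4, α5, α6 and many other α chains, was at 872, 719 and 586 CPM in IL-4Rα+/+ and at 715, 534 and 610 CPM in IL-4Rα-/- libraries. Its genotypes overlapped, and the log2 fold change of -0.23 (SE 0.17) did not pass (edgeR adjusted p = 0.706). Itgb7, the β chain of the gut-homing integrin, was at 544, 490 and 585 CPM against 395, 520 and 471 CPM. Knockout replicate 2 lay above IL-4Rα+/+ replicate 2, and the log2 fold change of -0.22 (SE 0.12) did not pass (edgeR adjusted p = 0.642).

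To compare chains of different length, CPM was divided by the kilobases of annotated exon. On this scale the Itga4 level per unit of Itgb1 was 0.406, 0.597 and 0.533 in IL-4Rα+/+ and 0.315, 0.378 and 0.404 in IL-4Rα-/- libraries. The highest knockout library lay just under the lowest control, so the genotypes were separated by a margin far smaller than the spread within either. The Itga4 level per unit of Itgb7 was 0.441, 0.594 and 0.362 against 0.386, 0.264 and 0.356, and these ranges overlapped. The absolute size of such a ratio depends on the length used, since with coding length the Itga4 level averaged 1.16 times that of Itgb1 in place of 0.439 times.

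Itga5 and Itga6 encode the classical fibronectin and laminin receptors that pair with β1. Itga5 was at 81.1, 91.0 and 149 CPM in IL-4Rα+/+ and at 81.4, 147 and 104 CPM in IL-4Rα-/- libraries. Each genotype held a low, a middle and a high library, and the log2 fold change was 0.05 (SE 0.29, edgeR adjusted p = 0.962). Leaving out 1 library turned its sign in 3 of the 6 cases. Itga6 was low, at 4.78, 6.15 and 4.53 CPM against 6.43, 6.65 and 5.95 CPM. Of the 3 knockout libraries only replicate 3 lay below the highest control, and the log2 fold change was 0.30 (SE 0.18, edgeR adjusted p = 0.656).

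Itgb2 and Itgal had the highest levels of the 10, and the other β2 genes lay far below them. Itgb2, the shared β2 chain, was at 2167, 1754 and 1446 CPM in IL-4Rα+/+ and at 1752, 1520 and 1644 CPM in IL-4Rα-/- libraries. All 3 knockout libraries lay within the range of the controls, with a log2 fold change of -0.13 (SE 0.15, edgeR adjusted p = 0.797). Itgal, the α chain of LFA-1, was at 2972, 2426 and 1672 CPM against 2033, 1262 and 1967 CPM. The controls spanned more than the difference of the means, and the log2 fold change was -0.43 (SE 0.26, edgeR adjusted p = 0.658).

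Itgax, the CD11c chain, was at 559, 379 and 220 CPM in IL-4Rα+/+ and at 354, 174 and 290 CPM in IL-4Rα-/- libraries. It varied 3.21-fold over the 6 libraries, more than any other β2 chain member, and its log2 fold change of -0.50 (SE 0.38) did not pass (edgeR adjusted p = 0.708). Itgam, the CD11b chain, was at 239, 211 and 251 CPM against 190, 283 and 217 CPM. Its genotypes overlapped fully, with a log2 fold change of -0.02 (SE 0.16, edgeR adjusted p = 0.969). Itgb3, the β chain of the vitronectin receptor αVβ3 and of the platelet fibrinogen receptor, was at 65.5, 43.3 and 22.4 CPM against 38.6, 13.3 and 39.0 CPM. It varied 4.94-fold over the libraries, the widest of the 10, and its log2 fold change was -0.53 (SE 0.51, edgeR adjusted p = 0.757).

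Counts of non-overlapping integrins depended on single libraries. Without IL-4Rα+/+ replicate 3, 5 integrins had genotypes without overlap, namely Itga4, Itgb1, Itgal, Itgax and Itgb3, beside 36.9% of all genes. Without IL-4Rα+/+ replicate 2 there were 3, Itga4, Itga6 and Itgb7, beside 21.4% of all genes. Without IL-4Rα-/- replicate 2 these were Itga4 and Itgb7 (23.7% of genes), and without IL-4Rα-/- replicate 3 Itga4 and Itga6 (26.1%). Without IL-4Rα-/- replicate 2, the log2 fold change was -0.17 for Itgb3, -0.24 for Itgal, -0.26 for Itgax and -0.13 for Itgb1, each nearer to 0 than with it, and -0.32 for Itgb7, which then passed the unadjusted p only (edgeR adjusted p = 0.851). Over the 6 such fits it ran from -0.84 to -0.12 for Itgb3, from -0.78 to -0.13 for Itgax, from -0.62 to -0.22 for Itgal and from -0.36 to -0.074 for Itgb1, without a change of sign. Itga4 was the 1 integrin that also passed the unadjusted p under 0.05 in each of the 6 fits.

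Ordered by level per kilobase of exon, Itgb2 (474 to 710 CPM per kb over the 6 libraries) came first and Itgal (192 to 452 CPM per kb) second, with Itgb2 above Itgal in 6 of 6 libraries. Itgb7 (143 to 211 CPM per kb) and Itgb1 (131 to 214 CPM per kb) followed with overlapping ranges, Itgb7 being higher in 4 of 6 libraries. Itga4 (49.5 to 105 CPM per kb) and Itgax (36.3 to 116 CPM per kb) overlapped likewise. Below them came Itgam (37.8 to 56.4 CPM per kb), Itga5 (16.4 to 30.2 CPM per kb) and Itgb3 (2.25 to 11.1 CPM per kb), and Itga6 was last at 0.502 to 0.737 CPM per kb. Itgax and Itgam could not be ordered, since Itgax was higher in 4 of 6 libraries.

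Places in this order moved with the length used. With coding length Itga4 took place 3, at 223 to 475 CPM per kb, above Itgb1 in 5 of 6 libraries. Itgam shares 3450 of its 5024 exon bases, or 68.7%, with the overlapping gene Gm49368 on the same strand, where a read cannot be assigned to 1 gene and is left uncounted. On the remaining 1574 bases Itgam stood at 121 to 180 CPM per kb and took place 5, above Itga4 in 6 of 6 libraries.

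**Figure D2:**
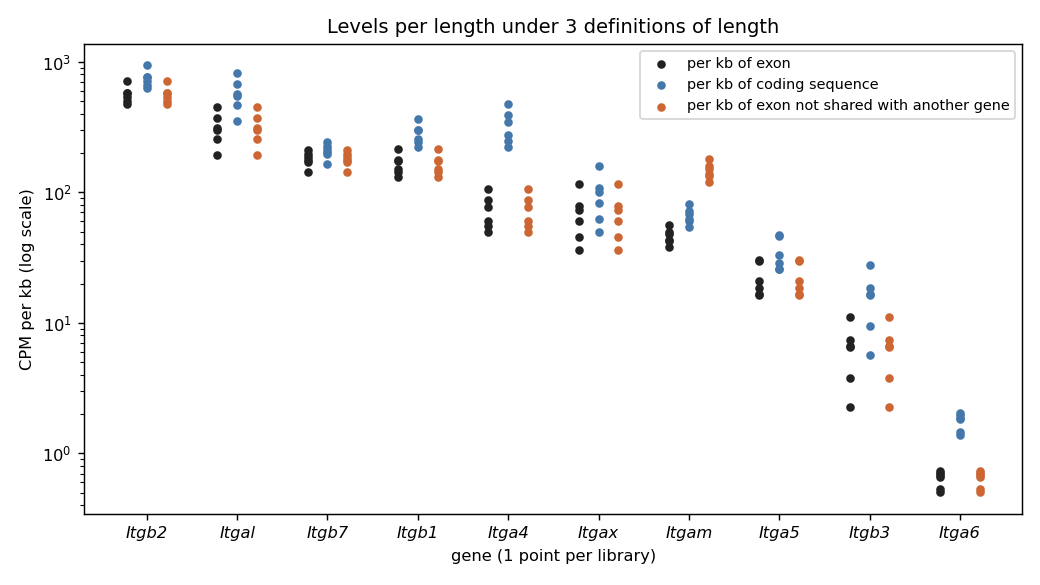
Levels of the 10 integrin genes in CPM per kilobase (y axis, log scale) under 3 definitions of length, 1 point per library, genes ordered by level per kilobase of exon. Itga4 moves up with coding length and Itgam with the exon bases not shared with another gene on the same strand, while Itgb2 stays first under all 3.

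Of the β2 partner chains counted per kilobase of exon, Itgal made up 67.0% to 71.3% in IL-4Rα+/+ and 57.2% to 68.8% in IL-4Rα-/- libraries. Itgad, which encodes αD and is known from splenic red pulp macrophages, made up 4.60% to 7.84% against 7.43% to 15.2%. Both pairs of ranges overlapped on this scale. The share of Itgam was 7.35% to 16.8% over the 6 libraries. It was 20.1% to 38.8% when each chain was counted on exon bases not shared with another gene on the same strand. Bases shared with genes on the opposite strand, 12.4% of those of Itgad, were kept. On that second scale Itgal made up 51.7% to 60.3% against 41.4% to 56.2%. Itgad then made up 4.26% to 6.54% against 6.55% to 13.2%, so its genotypes no longer overlapped, though by a very small margin. The level of Itgal per unit of Itgb2 was 0.637, 0.642 and 0.537 against 0.539, 0.386 and 0.556, with 2 of 3 knockout libraries inside the control range.

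Of the 17 other integrin subunits 11 could be tested, 6 with fitted changes above 0 and 5 below, and edgeR called 0 after adjustment. Of the 11, only Itgad passed the unadjusted p under 0.05, where 8.09% of all genes tested did. It was at 134, 126 and 134 CPM in IL-4Rα+/+ and at 319, 231 and 146 CPM in IL-4Rα-/- libraries. It was also the 1 subunit of the 11 whose genotypes did not overlap, where 15.5% of all genes tested had no overlap. Knockout replicate 3 lay close above the highest control. The log2 fold change was 0.82 (SE 0.26, edgeR adjusted p = 0.618; DESeq2 adjusted p = 0.203). Summed red pulp macrophage markers placed the knockout libraries in the same order, at 8546, 5915 and 5438 CPM. In the IL-4Rα+/+ libraries they were at 5140, 4583 and 4267 CPM, an order that Itgad did not follow. The part of those cells in the Itgad difference was not tested. Itgax and Itgad share 240 windows of 75 bases, the read length, which is 6.04% of the windows of Itgax, and reads from these places could not be assigned to either gene.

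Itga9 was at 51.7, 53.1 and 52.0 CPM in IL-4Rα+/+ and at 89.4, 70.7 and 51.9 CPM in IL-4Rα-/- libraries. Knockout replicates 1 and 2 lay above the controls and replicate 3 among them (log2 fold change 0.44, SE 0.19, edgeR adjusted p = 0.618). Itgav, an α chain for β1, β3 and β5, was at 141, 160 and 109 CPM against 133, 89.0 and 111 CPM (log2 fold change -0.30, SE 0.19), and Itgb5 at 259, 201 and 176 CPM against 252, 189 and 157 CPM (log2 fold change -0.09, SE 0.21). Both overlapped between the genotypes. Itga1 was at 18.2 to 60.4 CPM over the 6 libraries, and Itga2, Itga2b, Itga3, Itga8, Itga10 and Itgae each stayed under 8.6 CPM. Itga7, Itga11, Itgb4, Itgb8 and Itgb2l were too low to be tested, and Itgb6 had 0 counts in every library.

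**Figure D3:**
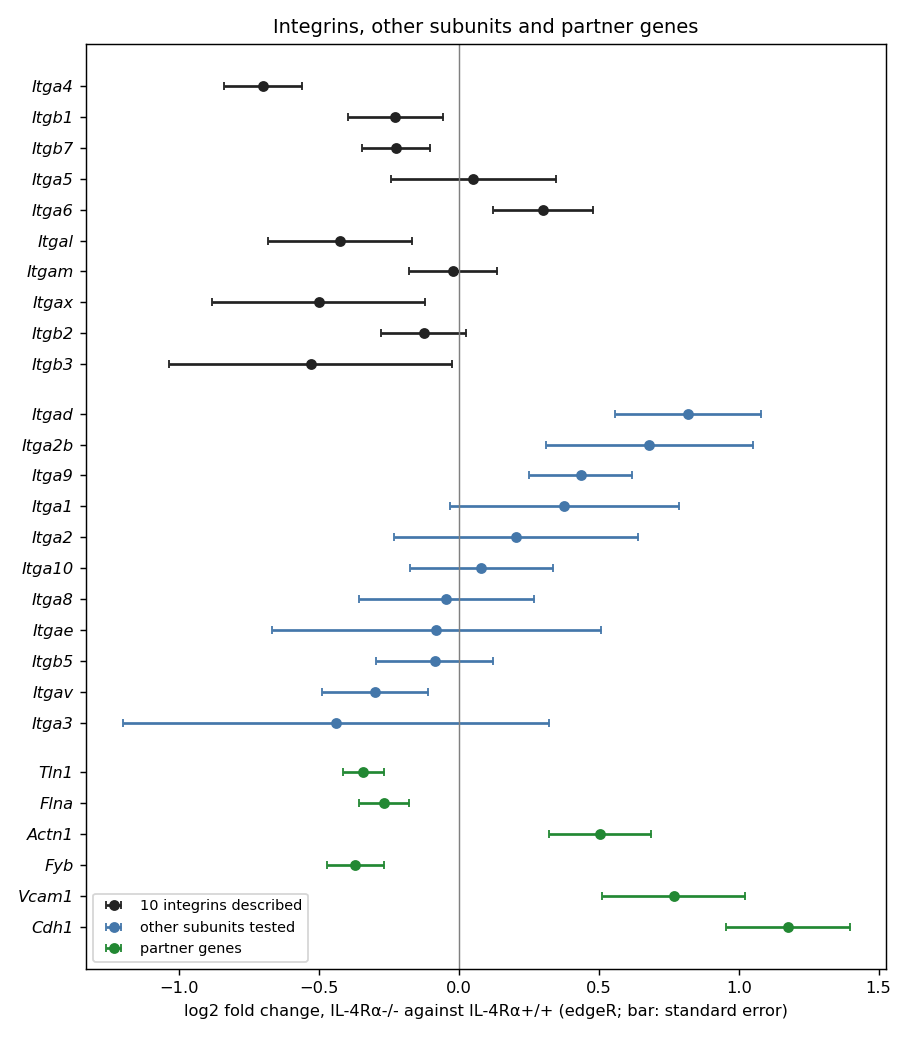
Log2 fold change of IL-4Rα-/- against IL-4Rα+/+ (x axis; points, edgeR estimates from 3 mice per genotype; bars, standard error) for the 10 integrins (black), the other integrin subunits tested (blue) and the partner genes with an unadjusted p under 0.05 (green). Itga4 at -0.70 is the lowest point of the 10 integrins and Itgad at 0.82 the highest of the other subunits.

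Integrins bind their ligands only once talin and kindlin hold the β tail. Of 17 genes for such activators and tail binders 15 were tested, with 13 fitted changes below 0 and 2 above, a median log2 fold change of -0.16, and 0 called by edgeR. By unadjusted p under 0.05, 2 of them lay lower, where 4.37% of all genes tested did. For 4 of them all knockout libraries lay below all controls, where 7.87% of all genes tested did. DESeq2 called 1 of these genes, Tln1, the talin of leukocytes, where it called 0.571% of all genes. Tln1 was at 2212, 2234 and 2062 CPM in IL-4Rα+/+ and 1718, 1658 and 1760 CPM in IL-4Rα-/- libraries. The knockout libraries lay together below the controls, with a log2 fold change of -0.34 (SE 0.07, edgeR adjusted p = 0.618; DESeq2 adjusted p = 0.0424). Like Itga4, Tln1 has a long transcript, of 8393 bases. With the trend with length removed, its DESeq2 log2 fold change was -0.24 (DESeq2 adjusted p = 0.130). The DESeq2 call for Tln1 held in 4 of 9 other settings, with adjusted p from 0.00899 to 0.659, and was lost with the replicate number as a block (0.659), without IL-4Rα+/+ replicate 1 or 2 and without IL-4Rα-/- replicate 1 or 2. Flna, the filamin that competes with talin for the β tail, passed the unadjusted p, at 3196, 3205 and 2987 CPM against 2607, 2372 and 2819 CPM (log2 fold change -0.27, SE 0.09, edgeR adjusted p = 0.618). Its transcript is long too, at 8456 bases. Fermt3, the kindlin of blood cells, was at 386, 372 and 392 CPM against 337, 393 and 359 CPM and overlapped.

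Of 27 genes of adhesion signalling 26 were tested, 17 with changes below 0 and 9 above, with a median log2 fold change of -0.06. By unadjusted p under 0.05, 1 lay lower and 1 higher, where 8.09% of all genes tested passed. Fyb, the adaptor that links integrins to actin through SKAP proteins, was at 878, 956 and 769 CPM in IL-4Rα+/+ and 709, 629 and 676 CPM in IL-4Rα-/- libraries, without overlap (log2 fold change -0.37, SE 0.10, edgeR adjusted p = 0.618). Actn1, an actinin that cross-links actin at adhesion sites, was at 132, 130 and 118 CPM against 235, 153 and 151 CPM, again without overlap (log2 fold change 0.51, SE 0.18, edgeR adjusted p = 0.618). DESeq2 called neither, with an adjusted p of 0.252 for Fyb and 0.392 for Actn1. Of all genes tested, 15.5% had genotypes without overlap.

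Of 22 genes for integrin ligands 14 were tested, 9 with changes above 0 and 5 below, with a median log2 fold change of 0.35. By unadjusted p under 0.05, 2 lay higher and 0 lower, where 8.09% of all genes tested passed in either direction. Without overlap, 1 lay higher and 1 lower, where 15.5% of all genes tested had no overlap. DESeq2 called 1, where it called 0.571% of all genes. Vcam1, the ligand of α4β1, was at 634, 556 and 572 CPM in IL-4Rα+/+ and 1353, 1013 and 634 CPM in IL-4Rα-/- libraries. Knockout replicate 3 reached only the level of the highest control, and the log2 fold change of 0.77 (SE 0.26, edgeR adjusted p = 0.618) passed by the unadjusted p only. Vcam1 is also a red pulp macrophage marker and is itself part of their summed level, so it was not set against that sum. Cdh1, the E-cadherin bound by αEβ7, was at 1.55, 1.37 and 1.51 CPM against 3.71, 3.54 and 2.77 CPM, without overlap (log2 fold change 1.18, SE 0.22, edgeR adjusted p = 0.618; DESeq2 adjusted p = 0.0205). DESeq2 called Cdh1 in 5 of 9 other settings, with adjusted p from 0.0149 to 0.473, and not with the replicate number as a block (0.473), without IL-4Rα+/+ replicate 2 or without IL-4Rα-/- replicate 1 or 2. Its partner chain Itgae was at 0.630 to 2.39 CPM.

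Itgal, Itgax and Itgb1 had 1 order of the libraries in common. From high to low, it ran from IL-4Rα+/+ replicate 1 through IL-4Rα+/+ replicate 2, IL-4Rα-/- replicate 1, IL-4Rα-/- replicate 3 and IL-4Rα+/+ replicate 3 to IL-4Rα-/- replicate 2. Ace, Spn, Adgre4 and Ear2, markers of Ly6C-low monocytes picked with their values in view, had the same order. Other markers of these cells did not, as Nr4a1 exchanged 1 neighbouring pair, Cx3cr1 was highest in IL-4Rα+/+ replicate 2, Treml4 was lowest in IL-4Rα+/+ replicate 3 and Fcgr4 was lowest in IL-4Rα-/- replicate 3. Ace, in the order of that list, was at 2774, 2123, 1745, 1604, 1088 and 710 CPM. Itgb3 and Itgb2 each differed from this order by the exchange of 1 neighbouring pair.

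Ccr2, Ly6c2 and Ms4a4c, markers of Ly6C-high monocytes, were lowest in IL-4Rα+/+ replicate 1 and highest in IL-4Rα-/- replicate 2. None of them gave the exact reverse of the order above. Ly6c2 was higher in IL-4Rα-/- replicate 3 (503 CPM) than in IL-4Rα+/+ replicate 3 (427 CPM). Ccr2, the chemokine receptor that brings them out of the bone marrow, was lowest in IL-4Rα+/+ replicate 1 at 380 CPM and highest in IL-4Rα-/- replicate 2 at 2008 CPM, with 1668 CPM in IL-4Rα+/+ replicate 3. Itga5 was likewise lowest in IL-4Rα+/+ replicate 1 and highest in IL-4Rα+/+ replicate 3 and IL-4Rα-/- replicate 2. Itga4 followed neither order, since IL-4Rα+/+ replicate 3 (1070 CPM) lay above IL-4Rα-/- replicates 1 and 3 (771 and 845 CPM), which exceeded it for Ace and Spn. The share of each monocyte subset was not measured in these libraries, and its part in the integrin values was not tested.

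**Figure D4:**
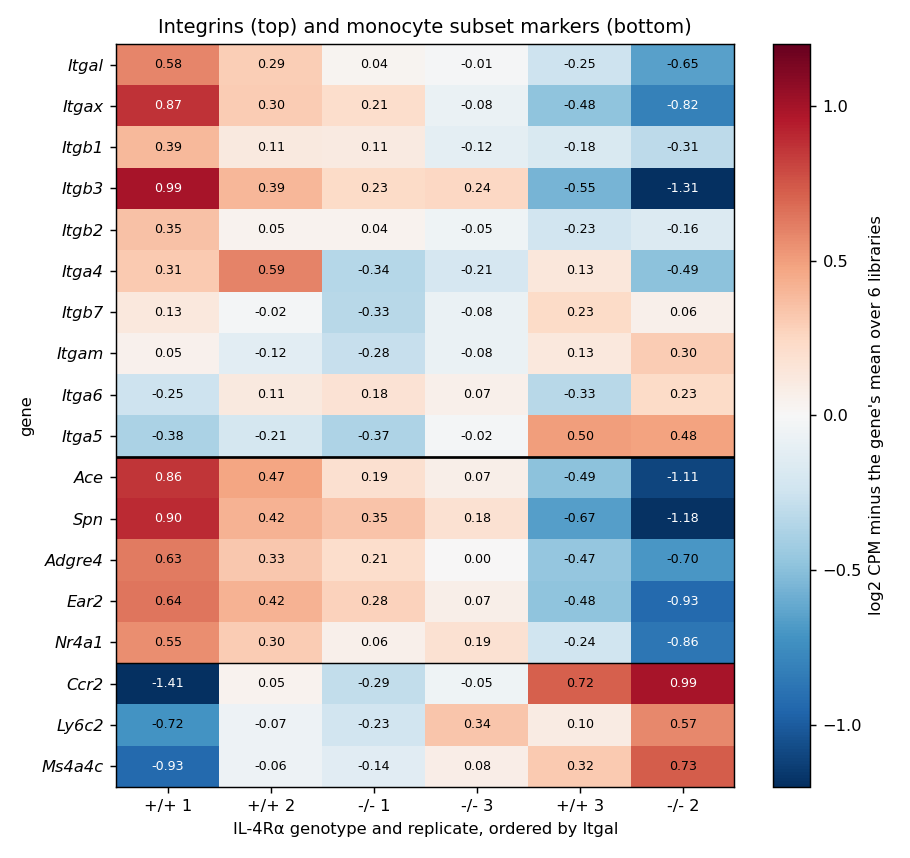
Log2 CPM minus the mean of each gene over the 6 libraries (color and printed value) for the 10 integrins (top), 5 markers of Ly6C-low monocytes (middle) and 3 of Ly6C-high monocytes (bottom), with libraries from left to right in the order of Itgal. Itgal, Itgax and Itgb1 go from high to low from left to right as Ace and Spn do, Itga5 is highest in the last 2 columns, and Itga4 is below its mean in all 3 IL-4Rα-/- libraries.

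Itgal, Itgam, Itgax and Itgad lie on chromosome 7 as Il4ra does, 1.72, 2.48, 2.55 and 2.57 Mb from it. Of these, Itgal, Itgam and Itgax overlapped between the genotypes and Itgad did not. Itga4, Itgb1, Itgb7, Itga5, Itga6, Itgb2 and Itgb3 lie on other chromosomes.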

How the data were processed

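Splenic monocytes were isolated by negative selection, and poly(A) RNA was sequenced from a directional library as single reads of 75 bases. The authors aligned reads to GRCm38 with STAR 2.6.1a and deposited counts of reads per gene, with Gencode annotation and without normalization. The strand setting of the counts is not given in the sources used here, so overlapping genes are uncertain. STAR's summary lines, 21.1% to 22.8% of reads, were left out, and the genes of a library held 26807281 to 29033297 reads, which makes a single count worth 0.0338 to 0.0378 CPM.

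Samples were grouped by genotype from their titles. Genes passing filterByExpr with a minimum count of 10 were scaled by TMM and fitted in edgeR 4.0.16 (R 4.3.3), whose quasi-likelihood p-values were adjusted by Benjamini-Hochberg and called under 0.15. DESeq2 1.42.0 was the alternative. Symbols and lengths came from Gencode M21, which held 55240 of 55421 identifiers. Both tests were tried at this threshold on simulated counts in which 200 genes were changed 4-fold. edgeR recovered 89.5% of these and also called 28 unchanged genes. DESeq2 recovered 90.5% and also called 106 unchanged genes. A 4-fold change is larger than that of any of the 10 integrins, of which Itga4 had the largest log2 fold change, -0.70. The trial therefore does not show how often changes of their size would be found.

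The members and lists were chosen with earlier results of these data known. Genes named beside the members are every other subunit, partner genes with an unadjusted p under 0.05 (at most 5 per list), Il4ra and the 3 genes most like Itga4. Ace, Spn, Adgre4, Ear2, Ccr2, Ly6c2, Ms4a4c, Fermt3 and 5 pancreatic genes were picked with their values in view. Alternatives changed the normalization, test, filter, threshold, trends with length and GC content, an Xist covariate, the block and the libraries. Mice were separate animals, and p-values measure the spread between them.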

Additional observations from a re-analysis of the deposited data

How the results depend on the processing

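Over the 10 fold changes and 14 alternatives, Itga4 stayed below 0 throughout, from -0.80 to -0.57, with an adjusted p from 0.0139 (DESeq2) to 0.901 (without IL-4Rα+/+ replicate 2). DESeq2 called 80 genes, 39 higher and 41 lower, and 1 integrin, where edgeR called 0 of each under every alternative run. The sign of Itgam turned with scaling by the library total only (log2 fold change 0.00084). Leaving out 1 library at a time moved Itgb3 from -0.84 to -0.12 and Itgax from -0.78 to -0.13 without a change of sign. It moved Itga5 from -0.21 to 0.37, Itgb2 from -0.26 to 0.034 and Itgam from -0.20 to 0.093, and the count of integrins went from 1 to 2 by unadjusted p and from 1 to 5 without overlap. The causes were not tested. The labels do not state whether the replicate numbers pair the mice. Same-numbered libraries correlated at 0.18, -0.27 and -0.30 in their deviations from the group means, which cannot settle it with 3 libraries per genotype. With the replicate number as a block, Itga4 was at -0.69 (edgeR adjusted p = 0.812; DESeq2 adjusted p = 0.110), edgeR called 0 genes with 765 at an unadjusted p under 0.05, and DESeq2 called 44. DESeq2 under the settings added after seeing the data called from 19 genes (without IL-4Rα+/+ replicate 2) to 438 (without IL-4Rα+/+ replicate 3).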

Other observations

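The 3 genes whose centred log2 CPM over the 6 libraries lay closest to those of Itga4 were Gm43071, D6Ertd527e and Macf1, a giant linker of actin and microtubules. Their root mean square differences from Itga4 were 0.0885, 0.107 and 0.110 on the log2 scale, against a median of 0.437 over all genes tested and 0.380 for the spread of Itga4 itself. The 3 genes were chosen for this likeness, which rests on 6 libraries and is given without a test. All 3 had genotypes without overlap, where 15.5% of all genes tested did, with log2 fold changes of -0.57, -0.75 and -0.51. A choice by likeness to Itga4 favours genes that separate the genotypes as it does, so this is no separate result.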
